A study of Ovis aries with 62 samples.

Results

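HIST1H2AL (ENSOARG00000020067) and HIST1H2AI (ENSOARG00000009236) are 2 genes for the core histone H2A. They were taken by gene ID from the 16011 genes measured in the ventral rumen wall of 62 sheep, and both are in the table. Each sheep gave 1 RNA sequencing library from the full thickness of the wall, which holds the epithelium and the muscle layers together. The animals were adult Merino ewes that all ate the same chaff of lucerne and oat above maintenance, and they differ in the test period (block) in which they were measured, and blocks 1, 2 and 4 hold 16 sheep each while block 3 holds 14. CH4 production, dry matter intake (DMI) and live weight come from the sample labels, and CH4 yield is CH4 production over DMI. The ewes descend from few sires, which the labels do not name, so each p measures the spread between sheep and takes them as independent.

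H2A and H2B form dimers that wrap DNA together with a tetramer of H3 and H4. The replication-dependent genes of these proteins lie in clusters of many near-identical copies, and they are transcribed mainly in S phase, when new chromatin needs histones. Their messages end in a stem-loop that SLBP binds and usually carry no poly(A) tail, so libraries made by removing ribosomal RNA, as here, keep them where poly(A) selection loses most of them. In the rumen the dividing cells are mainly those of the basal epithelium, and the layers above them differentiate and cornify. TOP2A, which encodes the topoisomerase that untangles DNA in dividing cells, is the reference gene of the comparisons below.

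Near-identical copies also limit what the values mean. The authors counted only reads that mapped to 1 place, so reads shared by several H2A genes were not counted, and the level of each gene rests on the reads that differ between copies. Lengths of the gene models were not used here, so the levels of the 2 genes are not compared with each other or with those of other genes. HIST1H2AL, HIST1H2AI, TOP2A and most histone and mitosis genes named below belong to the cell cycle list of the study, which was drawn from gene networks that include these sheep. That they vary together was therefore built into the choice of the list, and the relations between them are given for their size.

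Both genes had reads in every animal, at least 56 of HIST1H2AL and 68 of HIST1H2AI. HIST1H2AL had 11.2 CPM (the reads of a gene scaled to the size of its library) in the lowest sheep, a median of 24.0 CPM and 50.9 CPM in the highest, which is a 4.54-fold range. HIST1H2AI had 9.35 CPM in the lowest sheep, a median of 22.8 CPM and 41.6 CPM in the highest, a 4.45-fold range. These values rest on 56 to 505 reads of HIST1H2AL and 68 to 448 reads of HIST1H2AI per library, out of 4208032 to 12130080 assigned reads. On the log2 CPM scale of the deposited values the mean was 4.55 ± 0.42 for HIST1H2AL and 4.50 ± 0.48 for HIST1H2AI (SD, n = 62). Counting error of the reads made up 7.22% of the variance of HIST1H2AL and 5.77% of that of HIST1H2AI, and the rest holds the differences between sheep together with those of RNA extraction and library preparation, which 1 library per sheep does not separate. The SD of HIST1H2AL was larger than that of 81.1% of the 2508 genes whose mean was within 0.5 log2 of its own, and the SD of HIST1H2AI was larger than that of 86.6% of its 2499 neighbors. With log2 assigned reads HIST1H2AL had r = 0.243 (permutation p = 0.0572) and rho = 0.161 (p = 0.211). HIST1H2AI had r = 0.246 (p = 0.0536) and rho = 0.255 (p = 0.0447), so deeper libraries tended to have higher levels. With the block means removed r was 0.296 for HIST1H2AL (p = 0.0194) and 0.335 for HIST1H2AI (p = 0.00788), both under 0.05 without adjustment. Block 1 had the shallowest libraries by median (6812019.5 reads), and the part of depth in the results was not tested.

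The same sheep tended to stand at the ends of both ranges. Sheep oz40 of block 1 had the highest HIST1H2AL level (5.67 log2 CPM), a HIST1H2AI level of 5.31 and the highest TOP2A level (7.45). Sheep oz118 of block 2 had the highest HIST1H2AI level (5.38 log2 CPM) and a HIST1H2AL level of 5.55. At the low end, sheep oz244 of block 2 had the lowest levels of HIST1H2AL (3.49 log2 CPM) and TOP2A (5.43) and a HIST1H2AI level of 3.27, while the lowest HIST1H2AI level (3.22 log2 CPM) belonged to sheep oz187 of block 3, whose HIST1H2AL level was 3.67. The spread was not made by 1 block, since sheep of high and of low level stood in blocks 1, 2 and 3.

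**Figure D1:**
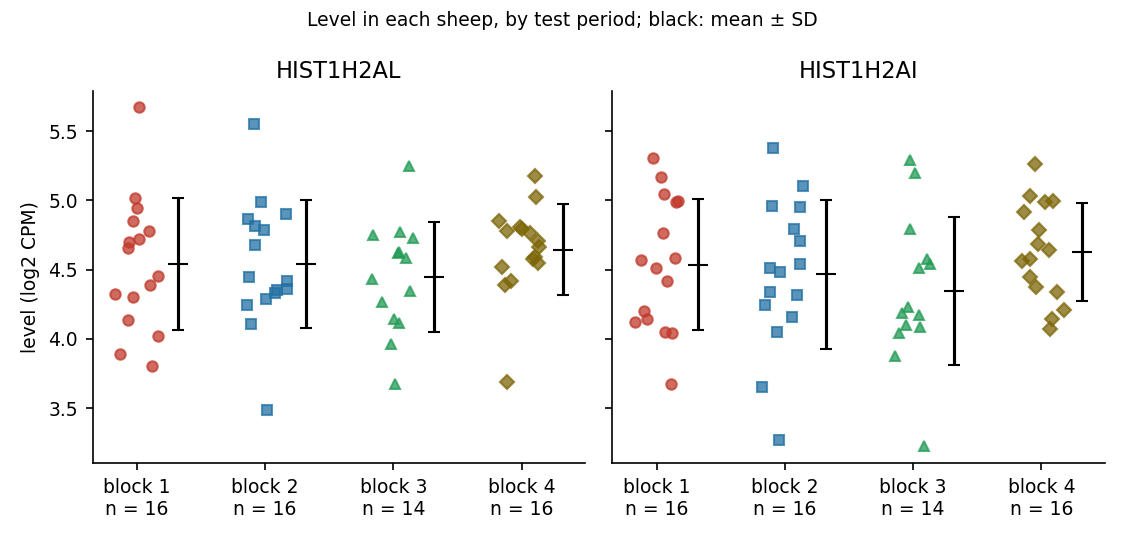
Level of HIST1H2AL (left) and HIST1H2AI (right) in log2 CPM, 1 point per sheep, in blocks 1 to 4, with the mean ± SD of each block in black. The ranges of the blocks overlap for both genes, and block means lie between 4.45 and 4.64 for HIST1H2AL and between 4.34 and 4.63 for HIST1H2AI.

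Across the 62 sheep the 2 genes varied together. Pearson's r between them was 0.780 and Spearman's rho 0.737 (permutation p = 1e-05 for both, the smallest that 100000 permutations can give, and 1.67e-05 adjusted over 5 relations). The variation of 1 gene thus matched 60.9% of that of the other. Both genes belong to the list drawn partly from these sheep, so these p are not independent evidence for the relation. Leaving out the 2 most extreme sheep gave r = 0.726, and removing the mean of each block gave 0.775. The blocks taken one by one gave r = 0.791 for block 1, 0.854 for block 2, 0.855 for block 3 and 0.475 for block 4. With TOP2A held constant the 2 genes still had r = 0.605 (permutation p = 1e-05), so part of what they shared was not shared with TOP2A.

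The log2 ratio of HIST1H2AL over HIST1H2AI had an SD of 0.302 over 62 sheep. It was lowest in sheep oz141 of block 3 (-0.71), which had 203 reads of HIST1H2AL and 332 of HIST1H2AI, and highest in sheep oz31 of block 2 (0.63), with 169 reads of HIST1H2AL and 109 of HIST1H2AI. The ratio did not differ between blocks beyond the spread of the sheep, with 1.74% of its variance between blocks (permutation F = 0.342, p = 0.793).

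The blocks addressed whether the test period moved the genes. HIST1H2AL had 3.81 log2 CPM in the lowest sheep of block 1, a median of 4.55 and a highest value of 5.67, against 3.49, 4.59 and 5.55 in blocks 2 to 4. The block 1 range lay almost wholly within that of the other blocks. The difference was -0.01 log2 (SE 0.119, 95% interval -0.24 to 0.23, limma adjusted p = 0.975 over all genes). HIST1H2AI had 3.68 log2 CPM in the lowest sheep of block 1, a median of 4.54 and a highest value of 5.31, against 3.22, 4.51 and 5.38 in blocks 2 to 4. All of its block 1 values were inside the range of the others, and the difference was 0.05 log2 (SE 0.135, 95% interval -0.22 to 0.32, limma adjusted p = 0.792). Neither gene was called, where 36.5% of the 16011 genes were called between these groups (5842 genes, 2755 higher and 3087 lower in block 1). Over the 4 blocks limma's F was 0.57 for HIST1H2AL (adjusted p = 0.751) and 0.97 for HIST1H2AI (adjusted p = 0.563), where 26.5% of genes were called.

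Most markers of muscle and of cornified epithelium were called between block 1 and the other blocks, where 36.5% of all 16011 genes were called. All 6 measured smooth muscle markers (MYH11, CNN1, LMOD1, DES, TAGLN and CALD1) were called higher in block 1, and their summed level was 11128 to 63138 CPM there (median 29593), against 8670 to 56401 CPM in blocks 2 to 4 (median 21801). Of 5 markers of suprabasal and cornified epithelium, 4 were called lower in block 1, and KRT13 was 0.30 log2 higher and not called. The summed level of all 5 was 1161 to 13027 CPM (median 4784) in block 1, against 4757 to 11926 CPM (median 7220) in blocks 2 to 4. For fibroblasts, 2 of 4 markers were called higher, while COL1A2 (0.08 log2) and COL3A1 (0.05) were not called. With so few genes and the share above, this count is not read as a result about fibroblasts. The summed level of all 4 was 2134 to 6824 CPM (median 4175) in block 1, against 1575 to 10627 CPM (median 2786) in blocks 2 to 4. None of these markers fell below 1 CPM in any sheep, and no marker of endothelium, leukocytes or basal epithelium had a symbol in the tables at hand. In bulk tissue fewer cells of a type and less RNA per cell cannot be told apart.

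The 647 genes that the study lists as muscle averaged 6.24 ± 0.33 log2 CPM in block 1 (SD, n = 16), against 5.82 ± 0.33 in blocks 2 to 4 (SD, n = 46). Both histone genes were lower where this mean was higher. For HIST1H2AI r with the muscle mean was -0.516 and rho -0.513 (permutation p = 5e-05 for both, adjusted p = 6.25e-05), and r was between -0.753 and -0.575 in the 4 blocks and -0.471 without the 2 farthest sheep. For HIST1H2AL r was -0.314 (p = 0.0131, adjusted p = 0.0131) and rho -0.304 (p = 0.0169), with r between -0.536 and -0.332 in blocks 1 to 3, 0.201 in block 4 and -0.319 without the 2 farthest sheep. With the muscle mean as a covariate, HIST1H2AI was called higher in block 1 by 0.44 log2 (SE 0.123, limma adjusted p = 0.0107), and its F over the 4 blocks was 5.12 (adjusted p = 0.0401). HIST1H2AL was then 0.19 log2 higher in block 1 and still not called (SE 0.128, adjusted p = 0.347). Relative to TOP2A, HIST1H2AI differed by -0.0007 log2 with this covariate (permutation p = 0.995), so TOP2A was higher in block 1 by about as much. The other histone genes and the mitosis genes were not read with this covariate in the block comparison. With that covariate 2300 of 16011 genes (14.4%) were called between block 1 and the others, and 1428 (8.92%) over the 4 blocks. Whether the HIST1H2AI difference reflects the muscle share was not tested.

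Other genes of DNA replication and mitosis were read in the same comparison. Of the 12 other histone genes the study names (4 of H2A, 5 of H2B and 3 of H4), 0 were called higher in block 1 by limma and 1 was called lower (also 0 higher and 1 lower at an unadjusted p under 0.05), and their median difference was -0.0011 log2, against -0.0071 over all genes tested. The one called was HIST1H4G (-0.32 log2, SE 0.0778, adjusted p = 0.000958), which the study lists under metabolism and not under cell cycle. RRM2, the ribonucleotide reductase subunit that supplies deoxynucleotides in S phase, differed by 0.04 log2 (SE 0.128, adjusted p = 0.853). Of 19 mitosis genes, 6 were called higher in block 1 and 0 lower, with a median difference of 0.20 log2. Of all 16011 genes, 2755 were called higher and 3087 lower (36.5% in either direction), with a median difference of -0.0071 log2. No test compared the histone list with the mitosis list. The 6 were MKI67, which coats mitotic chromosomes, with 1.28 log2 (SE 0.152, adjusted p = 3.22e-09), CASC5, a scaffold of the kinetochore (0.52), the kinetochore motor CENPE (0.42), the mitotic kinase PLK1 (0.42), the spindle pole protein ASPM (0.40) and the kinesin KIF20A (0.34). TOP2A differed by 0.12 log2 (SE 0.114, adjusted p = 0.433) and was not called.

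MKI67 had 5.78 to 8.11 log2 CPM in block 1 (median 7.47), against 4.63 to 7.30 in blocks 2 to 4 (median 5.96). As a description, since MKI67 was picked for its difference, HIST1H2AL relative to MKI67 was -2.69 ± 0.67 log2 in block 1 (SD, n = 16), against -1.41 ± 0.50 in blocks 2 to 4 (SD, n = 46). HIST1H2AI relative to MKI67 was -2.70 ± 0.77 log2 in block 1, against -1.47 ± 0.56 in blocks 2 to 4. Relative to TOP2A, HIST1H2AL differed by -0.12 log2 in block 1 (SE 0.118, permutation p = 0.234), and by -0.25 with the muscle mean as a covariate (permutation p = 0.0317, not adjusted). HIST1H2AI relative to TOP2A differed by -0.07 log2 (SE 0.0818, p = 0.485), and by -0.0007 with the muscle covariate (p = 0.995). These differences were examined after the values had been seen. Over all 62 sheep MKI67 had the lowest r of the 19 mitosis genes with either gene. It was 0.255 with HIST1H2AL (permutation p = 0.0467) and 0.219 with HIST1H2AI (p = 0.0864), with adjusted p = 0.0864 for both. Spearman's rho was 0.229 (p = 0.0745) and 0.204 (p = 0.110). Without the 2 sheep farthest from the MKI67 median r was 0.138 (p = 0.292) and 0.136 (p = 0.299). With the block means removed r was 0.379 (permutation p = 0.00252) and 0.271 (p = 0.0324).

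**Figure D2:**
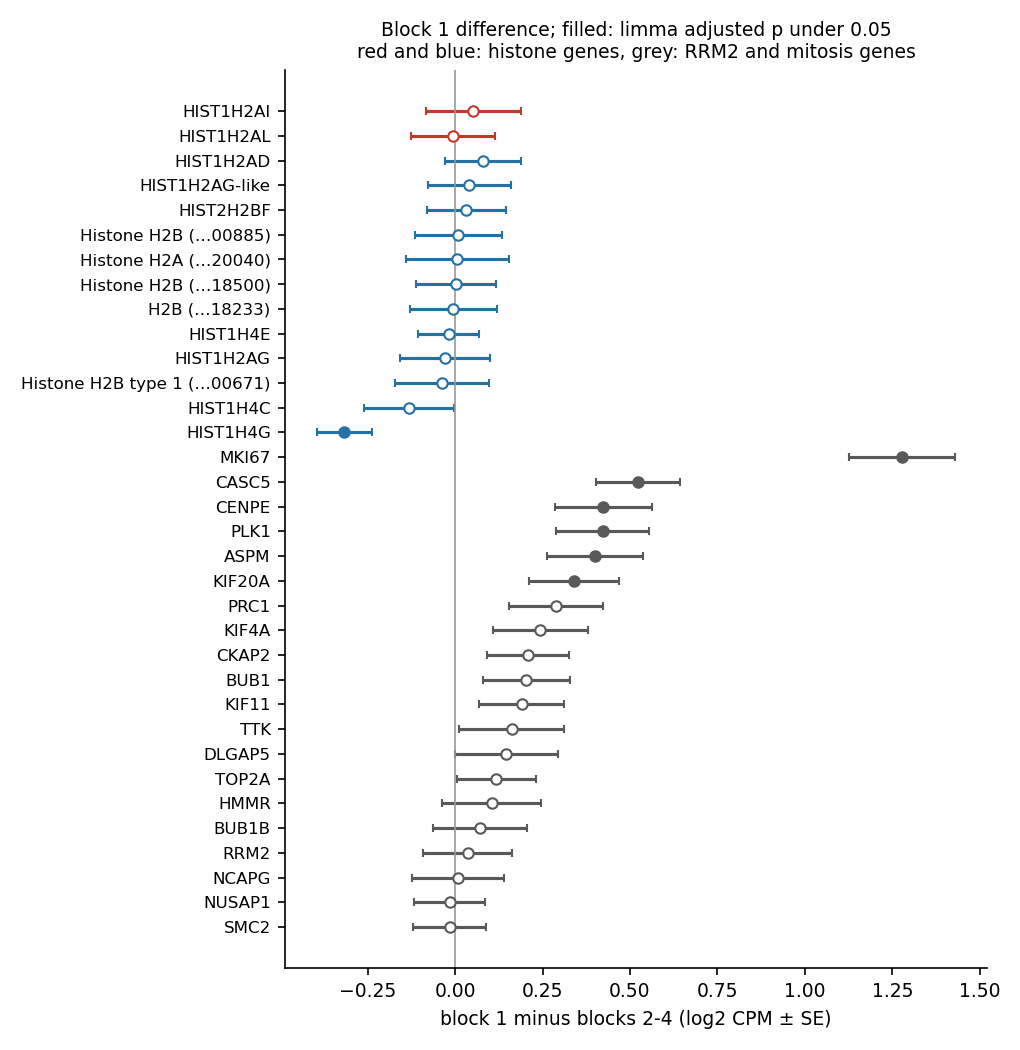
Difference between block 1 and blocks 2 to 4 in log2 CPM (± SE) for HIST1H2AI and HIST1H2AL (red), the 12 other histone genes (blue) and RRM2 and the 19 mitosis genes (gray), with filled points for genes called by limma over all genes. The histone genes lie around 0 apart from HIST1H4G (-0.32), while MKI67 stands at 1.28 and 5 further mitosis genes are called between 0.34 and 0.52.

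Sheep with more TOP2A had more of both histone messages. TOP2A itself ranged between 43.1 and 175 CPM (median 95.0). HIST1H2AL rose by 0.64 log2 per log2 unit of TOP2A (SE 0.103, limma adjusted p = 5.6e-06), with r = 0.624 and rho = 0.562 (permutation p = 1e-05 for both, adjusted p = 1.67e-05). HIST1H2AI rose by 0.88 log2 per log2 unit (SE 0.100, adjusted p = 4.11e-10), with r = 0.747 and rho = 0.721 (permutation p = 1e-05, adjusted p = 1.67e-05). Over all genes other than TOP2A, 7.65% had a called positive slope on it (1225 of 16010). Both histone genes and TOP2A belong to the list drawn partly from these sheep. Positive slopes were thus built into that choice, and these p and this share are not evidence for the relation. With the muscle mean as a covariate the share was 1.81% (289 genes), and the slopes were 0.63 for HIST1H2AL (SE 0.116, adjusted p = 0.000126) and 0.77 for HIST1H2AI (SE 0.109, adjusted p = 3.97e-07).

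The relation of HIST1H2AI with TOP2A was positive in each of the 4 blocks, at r = 0.858 for block 1, 0.900 for block 2, 0.695 for block 3 and 0.451 for block 4. HIST1H2AL gave r = 0.603 for block 1, 0.845 for block 2 and 0.765 for block 3, but 0.191 for block 4, where sheep oz214 had the lowest HIST1H2AL level of the block (3.69 log2 CPM) at a TOP2A level of 6.69. A difference of the slopes between blocks did not pass the test over all genes (limma, adjusted p = 0.999 for both genes). The unadjusted p was 0.103 for HIST1H2AL and 0.143 for HIST1H2AI, which does not show that the slopes were equal. Leaving out the 2 sheep with the most extreme TOP2A levels gave r = 0.523 for HIST1H2AL and 0.695 for HIST1H2AI. The ratio of HIST1H2AL over HIST1H2AI was lower where TOP2A was higher (r = -0.319, permutation p = 0.0116 and rho = -0.373, p = 0.00318, adjusted over 7 relations to 0.0203 and 0.00742). Its unadjusted p was under 0.05 with the block means removed (r = -0.310, p = 0.0147) and after dropping the 2 most extreme sheep (r = -0.379, p = 0.0026). Without block 1 r was -0.281 (p = 0.0586, 46 sheep), and with the muscle mean held constant it was -0.173 (p = 0.179), both above 0.05.

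**Figure D3:**
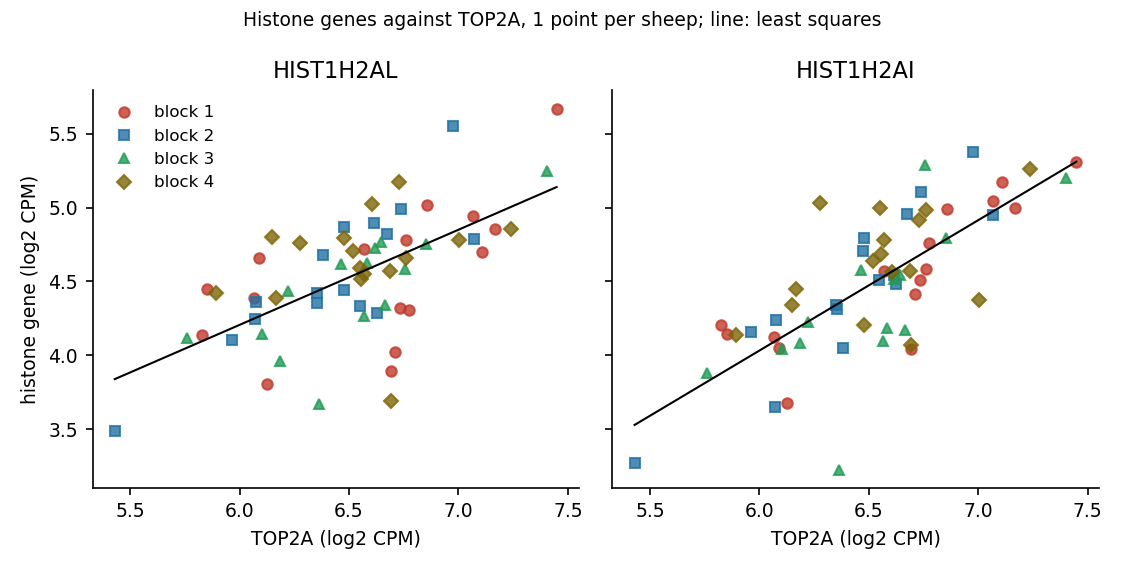
HIST1H2AL (left) and HIST1H2AI (right) in log2 CPM against TOP2A in log2 CPM, 1 point per sheep, with shape and color for the block and the least-squares line over 62 sheep. The lines rise by 0.64 and 0.88 log2 per log2 unit, and r was lowest in block 4 for both genes (0.191 and 0.451).

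The genes most like each histone gene were mainly other histones. Over 62 sheep, 7 of 16010 other genes had r above 0.8 with HIST1H2AL and 9 with HIST1H2AI, where the median r over all genes was 0.0004 with HIST1H2AL and 0.015 with HIST1H2AI. The gene most like HIST1H2AL was an H2B gene, ENSOARG00000018500 (r = 0.852), followed by H2B gene ENSOARG00000000885 (0.835), H2B type 1 gene ENSOARG00000000671 (0.832) and HIST1H2AG (0.828). ENSOARG00000018500 was also first for HIST1H2AI (r = 0.859), followed by HIST1H2AD (0.855), ENSOARG00000000885 (0.853) and HIST2H2BF (0.838). Of the 10 genes most like HIST1H2AL, 6 carry a histone name, and of the 10 most like HIST1H2AI, 7 do, with CKAP2, a spindle protein, as the only other named gene (r = 0.803). The 2 lists of 10 share 6 genes, and each keeps 8 of its 10 when the muscle mean is held constant. TOP2A ranked 70th for HIST1H2AL and 24th for HIST1H2AI.

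By class, the 5 H2B genes had a median r of 0.832 with HIST1H2AL and 0.838 with HIST1H2AI. The 4 other H2A genes had a median of 0.760 with HIST1H2AL and 0.828 with HIST1H2AI, and the 3 H4 genes 0.746 with HIST1H2AL and 0.704 with HIST1H2AI. No difference between the classes was tested. HIST1H4G was the lowest of the 12 for both genes (r = 0.307 with HIST1H2AL and 0.423 with HIST1H2AI). The 18 mitosis genes other than TOP2A had a median r of 0.604 with HIST1H2AL and 0.673 with HIST1H2AI, and all 18 were positive with both. CKAP2 had the highest of these values (0.741 and 0.803) and MKI67 the lowest. RRM2 had r = 0.677 with HIST1H2AL and 0.706 with HIST1H2AI.

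With TOP2A held constant, which takes out much of what the mitosis genes share since TOP2A is one of them, the median r was lower for both lists. The median partial r with HIST1H2AL was then 0.602 over the 12 other histone genes, against 0.222 over the 18 mitosis genes. With HIST1H2AI it was 0.560 over the histone genes, against 0.143 over the mitosis genes. Among the histone genes the partial r with HIST1H2AL lay between 0.173 and 0.756, and among the mitosis genes between -0.007 and 0.512. These are descriptions over genes that share the same libraries. In the slopes on TOP2A, 11 of the 12 other histone genes and all 18 mitosis genes were called positive, where 7.65% of all genes were. Most of these genes belong to the list drawn partly from these sheep, so the counts were built into that choice. Their median slopes were 0.80 and 0.96, and the members' slopes of 0.64 and 0.88 stood within the range of the histone genes (0.21 to 1.05). HIST1H4G was the one not called (0.21, SE 0.0917, adjusted p = 0.0962).

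**Figure D4:**
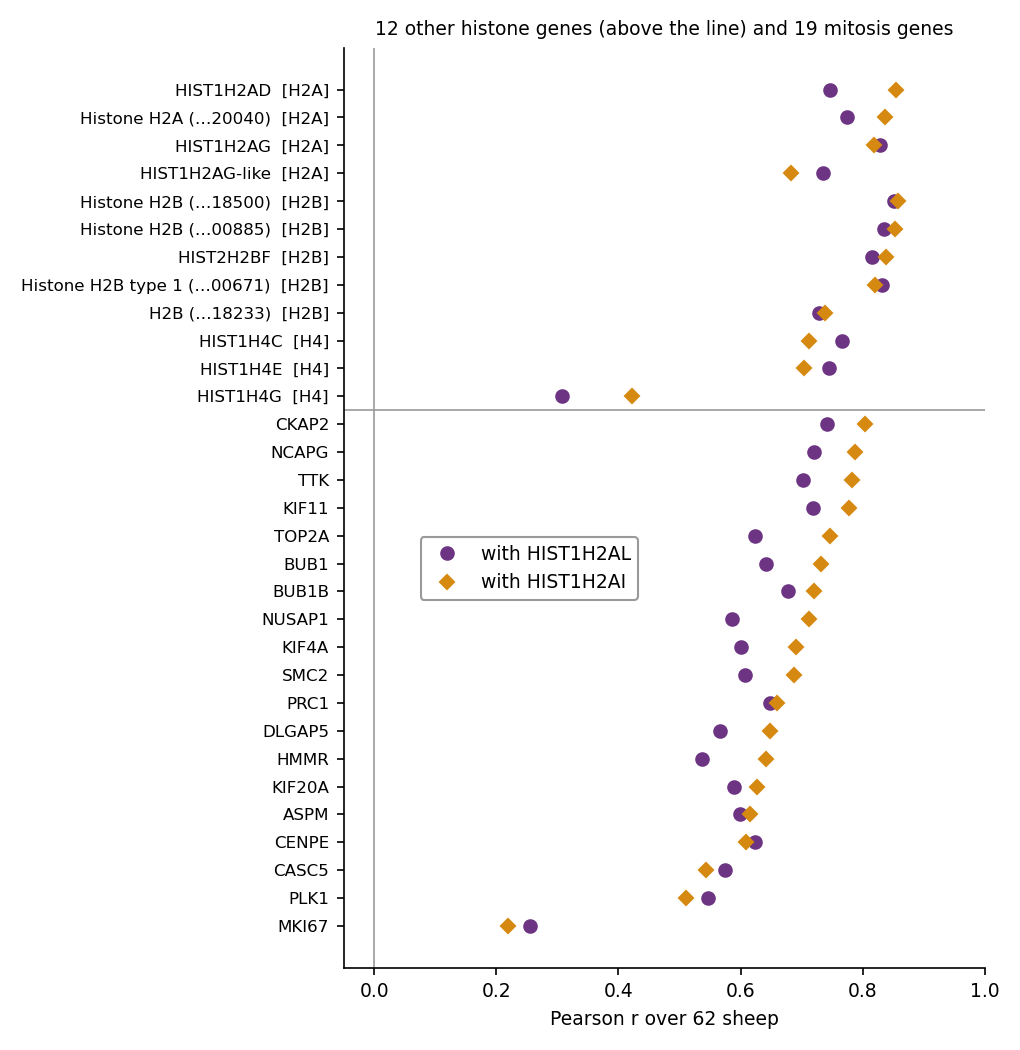
Pearson's r over 62 sheep of HIST1H2AL (circles) and HIST1H2AI (diamonds) with 12 other histone genes, grouped by histone class (above the line), and 19 mitosis genes (below it). The histone genes other than HIST1H4G lie between 0.683 and 0.859, while MKI67 lies at 0.255 and 0.219, apart from the other mitosis genes.

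Neither gene was related to a trait of the animals by the test over all genes. Per SD of CH4 production (4.72 g/d), HIST1H2AL changed by -0.08 log2 (SE 0.0517, 95% interval -0.18 to 0.03, limma adjusted p = 0.728) and HIST1H2AI by 0.05 (SE 0.0597, interval -0.07 to 0.17, adjusted p = 0.882), where 0.0125% of genes were called (2 genes). These intervals allow at most a fall to 0.883-fold for HIST1H2AL and a rise to 1.12-fold for HIST1H2AI per SD. Sheep oz151 of block 3 has a labeled DMI far below that of every other animal and was left out of DMI and CH4 yield, which leaves 61 sheep. Per SD of DMI (288 g/d), HIST1H2AL changed by -0.07 log2 (SE 0.0526, interval -0.18 to 0.03, adjusted p = 0.610) and HIST1H2AI by 0.03 (SE 0.0609, interval -0.09 to 0.15, adjusted p = 0.895).

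CH4 yield is CH4 per unit of feed. Per SD of CH4 yield (3.35 g/kg DMI), HIST1H2AL changed by 0.03 log2 (SE 0.0533, interval -0.08 to 0.13, adjusted p = 0.895) and HIST1H2AI by 0.01 (SE 0.0610, interval -0.12 to 0.13, adjusted p = 0.984). Without the 2 sheep farthest from the median yield, oz175 among them, the slopes were 0.01 (limma adjusted p = 0.958) and 0.04 (adjusted p = 0.802), and 16 genes were called. Limma called 0 genes (0%) for DMI and 0 (0%) for CH4 yield, with 1899 and 1521 genes at an unadjusted p under 0.05. Per SD of live weight (8.32 kg), HIST1H2AL changed by 0.01 log2 (SE 0.0526, interval -0.10 to 0.12, adjusted p = 0.989) and HIST1H2AI by 0.03 (SE 0.0599, interval -0.09 to 0.15, adjusted p = 0.956), where 0.0187% of genes were called (3 genes). For each of the 4 traits limma called 0 of the 12 other histone genes and 0 of the 19 mitosis genes, and RRM2 was not called. Among these genes only MKI67 with CH4 yield had an unadjusted p under 0.05 (-0.30 log2 per SD, SE 0.0911, adjusted p = 0.331). In the 8 relations r lay between -0.182 and 0.101, and the smallest of their permutation p was 0.156 for r and 0.0868 for rho, both for HIST1H2AL with CH4 production.

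The slopes of the 2 genes on CH4 production had opposite signs over all sheep, though neither passed, and their ratio was examined after this had been seen. Within blocks r with CH4 production was -0.521, -0.0816, 0.336 and -0.336 for HIST1H2AL in blocks 1 to 4, and -0.340, 0.0158, 0.565 and 0.303 for HIST1H2AI. The 2 genes thus had the same sign in blocks 1 and 3 and opposite signs in blocks 2 and 4, where both values of block 2 were near 0. A difference of the slopes on CH4 production between blocks did not pass by limma. For HIST1H2AL the unadjusted p was 0.106 (adjusted p = 0.721), and for HIST1H2AI it was 0.0553 (adjusted p = 0.679). Without block 1 the slopes per SD were -0.03 log2 for HIST1H2AL and 0.10 for HIST1H2AI, neither called. The log2 ratio of HIST1H2AL over HIST1H2AI was lower in sheep that produced more CH4 (r = -0.411, permutation p = 0.00087 and rho = -0.423, p = 0.00074, n = 62). Adjusted over the 7 relations of the ratio these were 0.00609 and 0.00518. The ratio changed by -0.12 log2 per SD of CH4 production, against an SD of 0.302 over the 62 sheep. That SD also holds the counting error of both genes (SD 0.112 log2 for HIST1H2AL and 0.115 for HIST1H2AI). The 2 errors add up in the ratio, so counting takes a larger share of its variance than of that of either gene. The sign of r between the ratio and CH4 production was the same in the 4 blocks. It was -0.281 for block 1, -0.165 for block 2, -0.592 for block 3 and -0.621 for block 4. Leaving out the 2 sheep with the most extreme CH4 production gave r = -0.377 (p = 0.00314), without oz141, the sheep of the lowest ratio, it was -0.401 (p = 0.00119), without oz151, whose labeled CH4 production equals that of another sheep, it was -0.412 (p = 0.00112), and with the muscle mean held constant it was -0.437 (p = 0.00043). The ratio was not related to the depth of the library (r = -0.0534, p = 0.679 and rho = -0.0277, p = 0.830), to CH4 yield (r = 0.0643, p = 0.623 and rho = -0.0264, p = 0.840) or to live weight (r = -0.0775, p = 0.549 and rho = -0.144, p = 0.260) past the test.

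**Figure D5:**
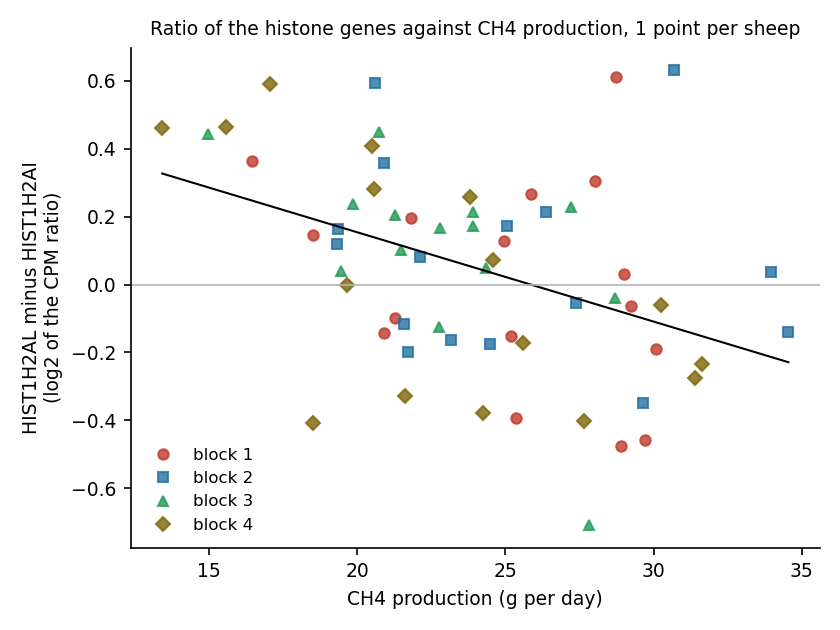
Log2 ratio of HIST1H2AL over HIST1H2AI against CH4 production (g per day), 1 point per sheep, with shape and color for the block and the least-squares line over 62 sheep. The line falls (r = -0.411), and sheep oz141 of block 3 is the lowest point at -0.71.

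DMI and CH4 production went together in these sheep (r = 0.860 and rho = 0.850, n = 61, permutation p = 1e-05 for both), and the ratio was also lower where DMI was higher (r = -0.334, p = 0.00912 and rho = -0.349, p = 0.00604, adjusted p = 0.0203 and 0.0106). With DMI held constant r of the ratio with CH4 production was -0.260 (p = 0.0426) and rho -0.344 (p = 0.00671). The ratio was higher where the muscle mean was higher (r = 0.383, p = 0.00233 and rho = 0.372, p = 0.00317, adjusted p = 0.00815 and 0.00742). Set against the mean of the 12 other histone genes, HIST1H2AL leaned down with CH4 production (r = -0.256, p = 0.0441 and rho = -0.258, p = 0.0425) and HIST1H2AI leaned up (r = 0.281, p = 0.0264 and rho = 0.269, p = 0.0354). Neither passed after adjustment over 4 such relations (adjusted p = 0.0883 for each r and 0.0809 for each rho), so the ratio's relation could not be assigned to either gene. Reads of near-identical copies that differ between sheep would enter this ratio, and their part in it was not tested.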

How the data were processed

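The authors made stranded, ribosomal RNA depleted paired-end libraries, used TopHat with Bowtie2 on Ensembl sheep gene models and counted uniquely mapped reads with HTSeq. edgeR and limma stand in the submitters' processing notes too. What the authors deposited is log2 CPM as voom gives it (offset of 0.5 reads). Whole reads were recovered from them in 100% of values (tolerance 0.01 reads) and gave 4208032 to 12130080 assigned reads per library (median 7923973). The paper states that genes above 1 CPM in all samples were kept, but 11621 of the 16011 genes in the table are above 1 CPM in every library.

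Blocks, traits and TOP2A were tested with limma 3.58.1 in R 4.3.3 (moderated statistics, variance trend on), with p adjusted by Benjamini-Hochberg over all genes and a threshold of 0.05. Trait slopes are per SD of the trait. Each relation was given as r (Pearson) and rho (Spearman), tested 2-sided with 100000 permutations (Python 3.11.15, numpy 2.4.6, scipy 1.17.1, pandas 2.3.3, and matplotlib 3.10.9 for plots), where 1e-05 is the smallest p possible. Partial relations permuted residuals from fits of each measure on the covariate. Intervals of 95% come from the SE. Both procedures were tested on simulated data.

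Alternatives were an offset of 5 reads, quantile normalization, voom weights, a minimum of 3 CPM in every library, the block or the muscle mean as a covariate, and leaving out block 1, the 2 sheep farthest from the median or each sheep in turn. The named genes are the 2 histone genes, TOP2A, the histone genes the study names, fixed lists of S phase, mitosis and cell type markers, with the highest and lowest as examples, and the 10 genes of highest r. The members and lists were chosen with earlier results of these data known. Symbols come from the study's tables and cover 1224 genes, so of the S phase list 1 of 20 genes was measured by symbol (RRM2), and none of 10 genes of histone mRNA processing, 5 histone chaperones and 7 variant histones. No coordinates, lengths or sequences were used.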

Additional observations from a re-analysis of the deposited data

How the results depend on the processing

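Among settings other than leaving out 1 sheep, 204 of 230 values kept their direction and their side of the threshold, and of the values without 1 sheep 961 of 988 did. For permutation p this threshold was 0.05 without adjustment. The slopes of both genes on TOP2A stayed called in all of them (0.53 to 0.70 for HIST1H2AL and 0.77 to 0.92 for HIST1H2AI without leaving out single sheep), as did r between the genes (0.726 to 0.786, and 0.753 to 0.796 without 1 sheep) and r of their ratio with CH4 production (-0.443 to -0.377, and -0.479 to -0.382 without 1 sheep). The block 1 difference of HIST1H2AL, near 0, turned to 0.0005373 with an offset of 5 reads and 0.188 with the muscle covariate, and ranged between -0.0812 and 0.0432 without 1 sheep. With the muscle covariate HIST1H2AI became called (0.438 for block 1 and F = 5.12 over 4 blocks), while relative to TOP2A its block 1 difference was -0.0007. Trait slopes that were not called changed sign: HIST1H2AI on CH4 yield (-0.0366 with the muscle covariate, -0.0111 with block, -0.0208 to 0.0321 without 1 sheep), HIST1H2AL on CH4 yield (-0.0163 to 0.0475 without 1 sheep) and HIST1H2AL on live weight (-0.00138 with voom weights, -0.00756 with block, -0.0203 without the 2 farthest sheep, -0.0148 to 0.0437 without 1 sheep). The ratio with CH4 yield turned to -0.0264 as rho and -0.0884 without the 2 farthest sheep. The cause was not tested. The muscle covariate lowered the genes called for block 1 to 2300, against 5842 without it, over 4 blocks to 1428, against 4242, and on TOP2A to 461, against 2665. With block as a covariate 4556 genes were called on TOP2A. Across alternatives 0 to 41 genes were called for CH4 production, against 2, 0 to 16 for CH4 yield, against 0, 0 to 5 for DMI, against 0, and 0 to 78 for live weight, against 3. No paired analysis was possible because the replicate numbers only name sheep. Relations of the ratio, with MKI67 and with other histone means, and their alternatives, were chosen after seeing the data.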

Other observations

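HIST1H4G, the third H4 gene of the histone list, had values unlike the other 11. Its level followed the muscle mean with r = -0.693 over 62 sheep, against -0.314 for HIST1H2AL and -0.516 for HIST1H2AI, and between -0.498 and -0.373 for the other 11 histone genes. Its slope on TOP2A was -0.04 with the muscle covariate (SE 0.0787, limma adjusted p = 0.867).

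With the muscle mean held constant, r of MKI67 was 0.404 with HIST1H2AL (permutation p = 0.00103) and 0.489 with HIST1H2AI (p = 4e-05). Without that step r was 0.255 and 0.219, and neither passed after adjustment (adjusted p = 0.0864 for both).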
